A study of Mus musculus with 101 samples.

Results

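The genes described here encode 7 RNA-binding proteins that act in the fate of fetal germ cells. They are Nanos2, Nanos3, Dnd1, Dazl, Ddx4, Lin28a and Pum2. They were taken by symbol, and all 7 were found among the 15423 genes of the table. RNA was sequenced from primordial germ cells of single mouse embryos at E13.5, the embryos being F1, F2 or F3 descendants of F0 dams that were fed benzo[a]pyrene (BaP) in sesame oil during pregnancy. Each embryo was of the OG2 strain, which carries EGFP under the Pou5f1 promoter, and the cells were enriched by FACS for EGFP, with a gate that by the study's methods was set to leave out the gonad's EGFP-negative cells. The F0 doses were 0 (vehicle), 0.033, 0.2 and 2 mg/kg/day, and only the F0 dams were dosed. Per the study's methods the dosing of F0 dams ended earlier in pregnancy for the F1 embryos than for the F2 and F3 lineages, so F1 differs from F2 and F3 in dosing period as well as in generation.

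There were 101 embryos from 56 dams, 53 males and 48 females. A dam here is the mother named in the embryo's title, an F0 female only for F1 embryos. By the study's methods the mothers of F2 and F3 embryos were F1 and F2 females. The titles do not name the F0 dam of an F2 or F3 embryo, so shared descent from a dosed F0 dam was not modelled. Listed from vehicle to the highest dose, F1 had 5, 2, 5 and 5 females with 5, 2, 6 and 8 males. F2 had 6, 3, 3 and 3 of either sex. F3 had 6, 4, 2 and 4 females with 6, 4, 4 and 3 males. The reads per embryo, as recovered from the values, ran from 5004382 to 87240533 with a median of 7789673. There were 11 libraries of over 20000000 reads, all of F1, called deep libraries here. They came from 6 dams and included 2 vehicle males and 1 vehicle female. A normalized count is a gene's read count scaled to the embryo's library by the authors. All levels are in this unit, and all differences are log2 differences of normalized count + 0.5 unless a fold is named.

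As background, NANOS proteins bind RNA together with Pumilio proteins and recruit the CCR4-NOT complex, which shortens the poly(A) tail and silences the message. NANOS2 works in this way in male fetal germ cells with DND1 as its partner, keeping meiotic genes low, while DAZL and LIN28A act earlier or on the opposite side, DAZL as the licence for sexual differentiation and meiosis and LIN28A as a block on let-7 miRNAs in germ cell founders. DDX4, the mouse vasa helicase, marks germ cells once they have settled in the gonad.

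In the GENCODE annotation of GRCm38, Nanos2 lies on chromosome 7 at 18987400 to 18988962 on the plus strand and Nanos3 on chromosome 8 at 84173731 to 84185217 on the minus strand. Dnd1 lies on chromosome 18 at 36763671 to 36766214 on the minus strand, and Pum2 on chromosome 12 at 8674134 to 8752581 on the plus strand. Dazl spans 50279395 to 50293636 of chromosome 17, Ddx4 spans 112598333 to 112652475 of chromosome 13, and Lin28a spans 134003330 to 134018841 of chromosome 4, all on the minus strand. Dnd1 overlaps Wdr55, which is read from the other strand. The library kit keeps no strand, so reads of the overlap cannot be assigned to Dnd1 or Wdr55 by their direction. The same limit holds where Nanos2 overlaps Gm45058 and Lin28a overlaps Gm13061 on the other strand, neither of which is a row of the table.

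The vehicle embryos show how the 7 genes stand in untreated male and female germ cells. Nanos2 and Nanos3 were higher in males, Dazl, Ddx4 and Lin28a were lower in males, and Dnd1 and Pum2 were not called different. In the fit of all generations, 17 vehicle males against 17 vehicle females, limma called 5 of the 7 at an adjusted p under 0.05, the threshold used throughout. The same comparison called 56.5% of the 13288 genes tested, 3703 higher and 3799 lower in males, so the share among the 7 was near that of all genes. In bulk RNA of this kind, fewer cells with a transcript and less of it per cell cannot be told apart.

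Nanos2, the repressor of meiosis in male germ cells, was low in level and mostly seen in males. In vehicle males it ran from 0 to 10.95 normalized counts with a median of 0.614 (mean 2.52 ± 3.38, SD, n = 17), and in vehicle females from 0 to 0.200 with a median of 0 (0.0307 ± 0.0697, n = 17). Of the males, 14 lay above every female, and 14 females were at 0, as were 2 males. Nanos2 was 1.78 higher in males (SE 0.35, 95% confidence interval 1.09 to 2.48, adjusted p = 7.65e-06). This log2 difference depends on the pseudocount and the tool, and it ran from 1.28 to 5.93 over the alternatives tried, with adjusted p from 6.50e-11 to 4.13e-05. In reads, Nanos2 had 1023 in the 17 vehicle males and 10 in the 16 vehicle females whose reads could be recovered, out of 237401012 and 173721666 reads. The deep male C4232.2 held 705 of the male reads and its deep littermate C4232.9 held 9 of the female reads, and without these embryos the counts were 318 and 1.

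Over all doses 8 of 48 females had a Nanos2 value above 0, among them all 5 deep female libraries. The most Nanos2 reads in a female were 11. Among males the median was 15 reads and the most 705, and 11 of the 52 males with recovered reads had no more than 3. The 6 males at 0 were none of them deep, so a 0 in a male says that Nanos2 was not detectable at that depth. Low values were not confined to shallower libraries, as the deep vehicle male C3774.3 had 2 Nanos2 reads of 23833292. In F2 all 6 vehicle females were at 0, with 0 of 47329093 reads. Against a floor of 3 reads over that group, 0.0605 normalized counts, the F2 vehicle male mean of 1.16 was at least 19.1-fold higher, and at least 12.6-fold higher without male D2996.2, the highest (mean 0.763). Such floors cover counting error only.

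Nanos3, which keeps migrating germ cells alive, was at 37.6 to 222 normalized counts in vehicle males with a median of 99.8 (105 ± 46.1, SD, n = 17). In vehicle females it ran from 29.7 to 101 with a median of 53.02 (52.6 ± 19.5, n = 17). The ranges overlapped, with 8 males above every female and 5 females below every male, and 15 of 17 males above the female median. The male mean was 2.00-fold the female mean, and the log2 difference was 0.95 (SE 0.21, 95% confidence interval 0.55 to 1.36, adjusted p = 3.84e-05).

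Dnd1, the partner of NANOS2 whose loss gives germ cell tumours, ran from 18.7 to 46.7 normalized counts in vehicle males (median 28.1, mean 31.5 ± 9.83, SD, n = 17) and from 10.1 to 63.9 in vehicle females (median 25.6, 29.7 ± 14.0, n = 17). The sexes overlapped almost wholly, with 2 females above and 2 below every male. The difference was 0.15 (SE 0.17, 95% confidence interval -0.19 to 0.48, adjusted p = 0.470), which leaves room for a change of either sign within those bounds. Wdr55, on the other strand of the overlap, was at 60.8 ± 9.89 in vehicle males and 30.8 ± 7.36 in vehicle females. The part of Wdr55 reads in the Dnd1 values was not tested.

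Pum2, a Pumilio protein that binds RNA beside NANOS proteins, ran from 22.5 to 81.6 normalized counts in vehicle males (median 31.5, mean 36.7 ± 14.3, SD, n = 17) and from 25.2 to 57.0 in vehicle females (median 34.6, 35.8 ± 7.69, n = 17). Males and females lay within each other's ranges but for 2 males above and 1 male below every female. The difference was -0.01 (SE 0.11, 95% confidence interval -0.23 to 0.21, adjusted p = 0.926), and its sign changed among the alternatives, from -0.03 to 0.01. The bounds limit a sex difference of Pum2 to about those sizes.

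Dazl, which opens the way to meiosis, was at 603 to 1905 normalized counts in vehicle males with a median of 945 (978 ± 306, SD, n = 17). In vehicle females it ran from 879 to 2251 with a median of 1319 (1375 ± 312, n = 17). Every female exceeded 7 of the males, and 15 males were under the female median. Dazl was 0.52 lower in males as a log2 difference of -0.52 (SE 0.12, 95% confidence interval -0.76 to -0.27, adjusted p = 0.000174), and the female mean was 1.41-fold the male mean.

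Ddx4, the vasa helicase of the germ granule, ran from 170 to 644 normalized counts in vehicle males with a median of 364 (375 ± 130, SD, n = 17). In vehicle females it ran from 320 to 715 with a median of 530 (505 ± 117, n = 17). As with Dazl, every female exceeded 7 of the males, and 15 males were under the female median. Its difference was -0.48 (SE 0.15, 95% confidence interval -0.78 to -0.18, adjusted p = 0.00469).

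Lin28a, the inhibitor of let-7 maturation, was at 4.25 to 9.88 normalized counts in vehicle males with a median of 5.19 (6.02 ± 1.75, SD, n = 17). In vehicle females it ran from 5.63 to 14.6 with a median of 9.44 (9.64 ± 2.56, n = 17). It separated the sexes more than Dazl or Ddx4 did by count of embryos, with 10 males below every female and 6 females above every male. The difference was -0.64 (SE 0.12, 95% confidence interval -0.87 to -0.40, adjusted p = 2.76e-06), and the female mean was 1.601-fold the male mean. Lin28a rested on few reads, a median of 49 in males and 76 in females over all doses.

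Within litters the same directions were seen. Brother and sister could be compared in 15 vehicle litters, where Nanos2 was higher in the brother in 13 and in the sister in 0. Nanos3 was higher in the brother in 12. The sister had more Dazl in 14 litters, more Ddx4 in 14 and more Lin28a in 14. Dnd1 was higher in the brother in 9 litters and Pum2 in 6. These embryos are those of the comparison above, so the counts describe it and add no evidence.

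**Figure D1:**
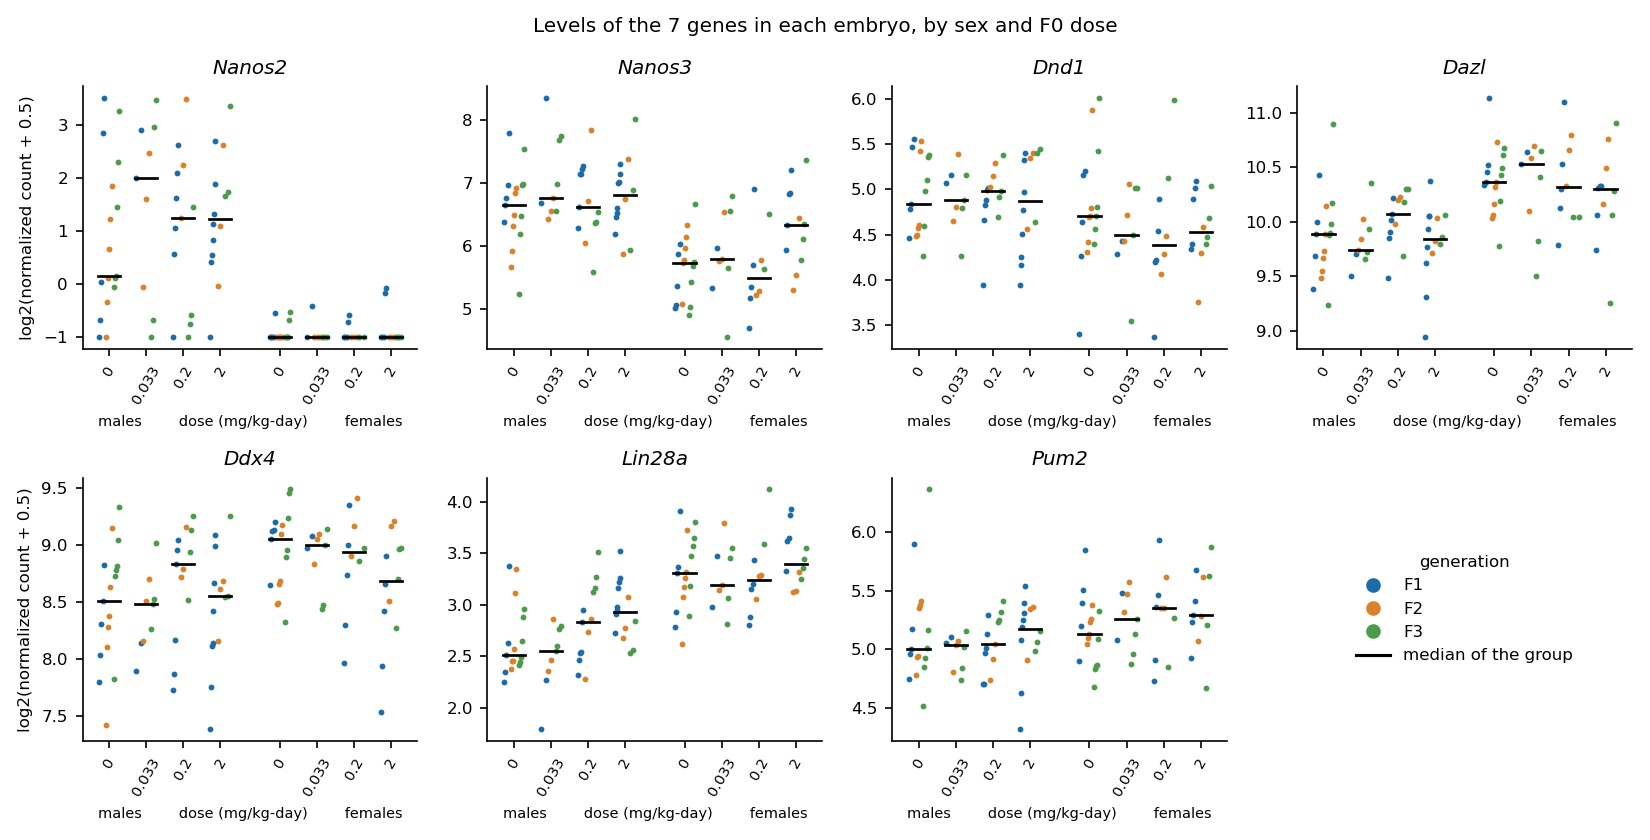
Levels of the 7 genes in each of 101 embryos, as log2(normalized count + 0.5) on the vertical axis, by sex and F0 dose (mg/kg/day) on the horizontal axis, with 1 point an embryo coloured by generation and a line at the group median. Nanos2 sits at the lowest value in most females and spreads widely in males, while Dazl and Lin28a points lie lower in males at every dose with some overlap.

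The generations were then taken singly, each with vehicle males and females from its own fit. In F1, where 23.8% of genes were called, 4 of 7 passed, namely Nanos3 (1.44, adjusted p = 0.00133), Nanos2 (1.86, 0.0320), Dazl (-0.69, 0.0305) and Lin28a (-0.64, 0.0311). In F2, where 41.1% of genes were called, 3 passed, namely Dazl (-0.53, 0.00337), Nanos2 (1.42, 0.00818) and Lin28a (-0.48, 0.0468). In F3, where 32.2% of genes were called, 3 passed, namely Lin28a (-0.79, 0.000637), Nanos2 (2.08, 0.00724) and Nanos3 (0.99, 0.0472). Ddx4 was lower in males in each generation but passed in none (-0.74, -0.44 and -0.30, adjusted p = 0.0710, 0.0748 and 0.299). Lin28a and Nanos2 were therefore called in all 3 generations. Nanos3 in F2 (0.52, adjusted p = 0.130) and Dazl in F3 (-0.35, 0.264) kept their direction and missed the threshold.

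The Nanos3 level shows how these calls sit in the embryos. In F1 vehicle males it was 82.7, 99.8, 109, 125 and 222 normalized counts, and in F1 vehicle females 31.9, 33.0, 40.9, 58.5 and 65.3. All 5 males lay above all 5 females. In F2 the males ran from 50.6 to 120 and the females from 33.6 to 80.5, and 3 of 6 males lay above every female. In F3 the males ran from 37.6 to 187 and the females from 29.7 to 101, again with 3 of 6 males above every female. Nanos2 lay above every female of its generation in 3 of 5 males of F1, 5 of 6 of F2 and 6 of 6 of F3. Lin28a lay below every female in 4 of 5, 4 of 6 and 5 of 6 males.

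Some single-generation calls lay near the threshold and changed with the embryos or the test. Nanos3 in F3 was lost without any 1 of 17 embryos. Of these, 8 were exposed embryos outside the comparison (females D2032.2, D4190.2 and D2374.5, males D2032.3, D3744.4, D1390.1, D1390.5 and D1464.2), with the difference unchanged at 0.99 and adjusted p from 0.0505 to 0.0523. The other 9 were vehicle embryos (males D1344.2, D1388.1, D3612.2 and D3651.1, females D1344.3, D1388.3, D3402.1, D3612.1 and D3651.2), with adjusted p from 0.0581 to 0.131. It was also lost in 6 other settings, with adjusted p from 0.0530 to 0.0738, among them both edgeR tests. Lin28a in F2 was likewise lost without any 1 of 17 embryos, of which 8 were exposed (females D3620.3, D4028.2, D1996.1, D1040.2, D1064.4 and D3371.1, males D2256.2 and D3371.2), with the difference unchanged at -0.48 and adjusted p from 0.0505 to 0.0522. The 9 vehicle embryos were males C4988.2, C4992.2, D2991.3 and D2996.2 and females C4992.1, D2991.1, D2996.1, D3001.2 and D3133.2, with adjusted p from 0.0535 to 0.121. It was lost too with no filter (0.0534), in the edgeR quasi-likelihood test (0.0517) and with the compared groups fitted alone (0.106).

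In F1 the Lin28a call was lost without vehicle male C4232.2, C4605.1 or D2580.2 or vehicle female C4605.2, D1961.1 or D2580.1, with adjusted p from 0.0588 to 0.125. The Dazl call was lost without vehicle female C4232.9 (adjusted p = 0.118) or vehicle male C4321.1 (0.102) or D2580.2 (0.0685). The Nanos2 call was lost without vehicle male C4232.2 (0.132) or C4321.1 (0.167, with the difference at 1.22), the highest of the F1 vehicle males. It was also lost without female C4321.6, C4605.2, D1961.1 or D2580.1 (0.0526 to 0.0589), and without the deep libraries (0.102), where the difference was 1.85 against 1.86 with them. With the compared groups fitted alone the adjusted p was 0.0812 for Nanos2, 0.0603 for Dazl and 0.114 for Lin28a. Ddx4 moved the other way in F1 and passed without vehicle male C4232.2 (0.0444), with the compared groups alone (0.0245) and with dams as a replicate block (0.00960). In F2 Ddx4 passed without male C4988.2 (0.00971) or female D3133.2 (0.0492). Without male D3001.1 it moved the other way, with the F2 difference at -0.26 against -0.44 with all embryos (adjusted p = 0.257). In F3 the Ddx4 difference was -0.12 without vehicle male D3651.1, against -0.30 with all embryos. Without the same male the F3 Dazl difference was -0.20, against -0.35.

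**Figure D2:**
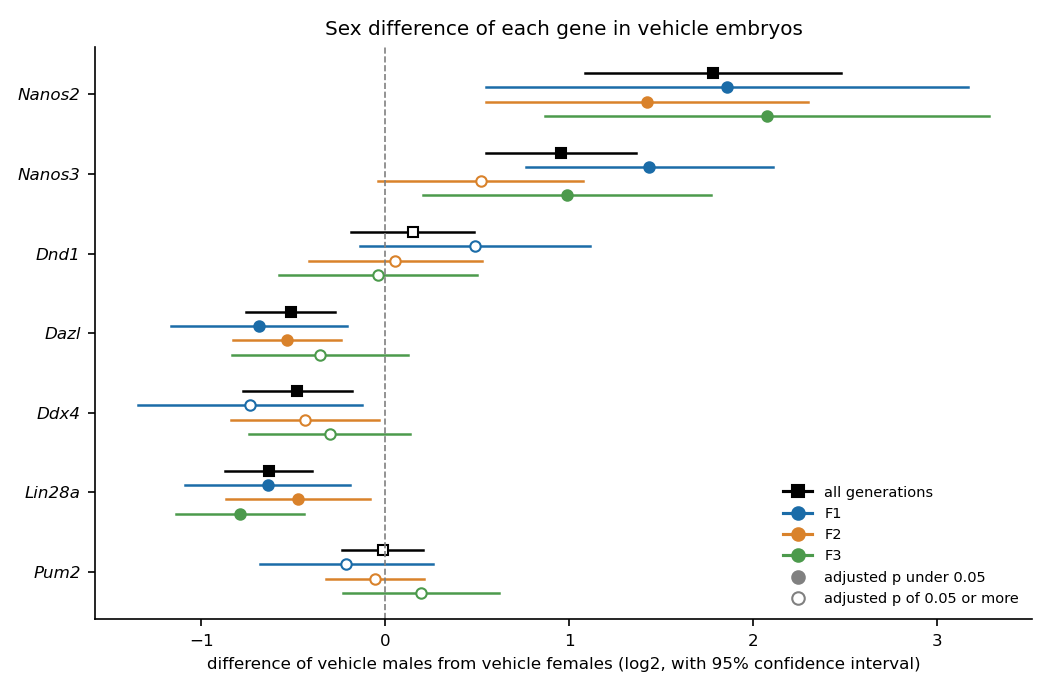
Difference of vehicle males from vehicle females for each of the 7 genes (log2, horizontal axis), in all generations (squares, 17 against 17 embryos) and in F1, F2 and F3 (circles), with 95% confidence intervals as lines and filled symbols for an adjusted p under 0.05. Nanos2 (1.78) and Nanos3 (0.95) lie to the right of 0, and Dazl (-0.52), Ddx4 (-0.48) and Lin28a (-0.64) to the left.

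Levels of the 7 genes can be ordered after dividing by the length of their merged exons, as normalized counts per kilobase, with the caution that libraries primed by oligo(dT) favour 3′ ends. In vehicle males the order was Dazl (256 ± 80.2 per kilobase, SD, n = 17), Ddx4 (124 ± 43.2), Nanos3 (114 ± 49.9), Dnd1 (13.1 ± 4.07), Pum2 (5.05 ± 1.97), Nanos2 (1.61 ± 2.16) and Lin28a (1.51 ± 0.438). Ddx4 and Nanos3 did not differ beyond their spread, with Ddx4 the higher in 11 of 17 males, nor did Nanos2 and Lin28a, with Nanos2 the higher in 6. Dazl was above Ddx4 in all 17 males and lay above 97.0% of the 11972 genes with a length. The median gene was at 2.33 per kilobase in males and 2.28 in females.

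In vehicle females the order on the same per kilobase scale was Dazl (360 ± 81.7, SD, n = 17), Ddx4 (168 ± 39.0), Nanos3 (57.0 ± 21.1), Dnd1 (12.3 ± 5.80), Pum2 (4.94 ± 1.06), Lin28a (2.41 ± 0.641) and Nanos2 (0.0197 ± 0.0446). Here each neighbour in the order was apart in at least 16 of 17 females. Dazl lay above 98.1% of genes. The helicase and Dazl thus stood among the most abundant transcripts of both sexes per unit of length, and Lin28a near the median gene in females.

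The complexes that these proteins work with were looked at through lists of genes, beside 56.5% called and a median difference of 0.00 over all genes in the all-generation comparison of vehicle males with females. Nanos1, a NANOS family member best known from the brain, was lower in males (-0.98, adjusted p = 3.53e-07), at 1.23 ± 0.535 normalized counts in males and 2.85 ± 0.862 in females.

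Of 18 genes of CCR4-NOT and PAN2-PAN3 deadenylation, the machinery that NANOS2 recruits, 2 were higher and 3 lower in males (27.8%, median 0.00). Btg2 (1.45, adjusted p = 3.44e-16) and Btg1 (0.79, 0.000177), which tie the deadenylases to target messages and slow the cell cycle, were higher. The scaffold Cnot1 (-0.52, 4.04e-05) and the catalytic subunits Cnot7 (-0.56, 4.35e-05) and Cnot6l (-0.84, 3.46e-06) were lower. The most abundant gene of the list, Rqcd1 (a CCR4-NOT subunit), was at 288 ± 148 normalized counts in males and 240 ± 53.9 in females, a difference of 0.15 (adjusted p = 0.408).

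Of 19 P-body and stress granule genes, whose proteins gather silenced messages, 7 were higher and 5 lower in males (63.2%, median 0.09). G3bp1 (0.91, adjusted p = 1.06e-07), a stress granule core protein, Edc4 (0.58, 0.000717), a scaffold of decapping, and Ybx1 (0.61, 0.00155), a general mRNA coat protein, were higher. Patl2 (-2.04, 8.85e-14) and Ybx2 (-1.13, 8.48e-10), both known from oocytes, and Eif4enif1 (-0.33, 0.00213), which holds messages away from translation, were lower.

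Of 17 genes of the LIN28 and let-7 axis, 5 were higher and 4 lower in males (52.9%, median 0.10). Lin28b, the relative of Lin28a, was lower in males as Lin28a was (-0.78, adjusted p = 4.54e-07), at 5.48 ± 2.04 normalized counts against 9.57 ± 2.27 in females. Dgcr8 (-0.62, 1.38e-05), of the microRNA processor, was lower too. The known let-7 targets Hmga2 (1.12, 3.56e-05) and Mycn (0.50, 0.000874) were higher in males, as was Prdm1 (0.45, 0.00154), a founder factor of germ cells. Hmga1, the most abundant of the list, differed by 0.33 (adjusted p = 0.134).

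Of 28 tested genes for other germ cell RNA-binding proteins, a list that holds Dazl and Ddx4, 4 were higher and 13 lower in males (60.7%, median -0.33). Fmr1 (-1.50, adjusted p = 6.91e-17), the fragile X protein gene, Rbm46 (-1.37, 1.32e-12), needed in meiosis, and Boll (-1.47, 3.35e-10), of the Dazl family, were lower. Tdrd5 (0.85, 3.03e-06), of the piRNA pathway, Khdrbs1 (0.59, 2.79e-08), a splicing regulator, and Bicc1 (0.44, 0.0256), a translational repressor, were higher. Bicc1 was near the lowest level tested, at 0.724 ± 0.463 normalized counts in males and 0.374 ± 0.251 in females.

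A list was drawn up of meiotic genes that NANOS2 is known to keep low. It also holds Dazl and the transcription factor gene Gata2. Of its 11 genes tested, 10 were lower and 0 higher in males (90.9%, median -1.84). Stra8, the gatekeeper of meiosis, was at 2.72 ± 3.54 normalized counts in males and 416 ± 197 in females (-7.40, adjusted p = 1.85e-28). Gata2 (-4.42, 7.98e-38) and the meiotic cohesin Rec8 (-3.88, 2.34e-23) were lower as well. Dazl, at -0.52, was the most abundant gene of that list.

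Of 16 genes for signals and factors of the male germ cell path, 11 were higher and 4 lower in males (93.8%, median 1.11). Lefty2 (6.87, adjusted p = 3.36e-54), a target of Nodal signalling, was higher, as was the Y-linked Kdm5d (3.36, 4.28e-51), which was at 0 in all vehicle females. The receptors Fgfr3 (-2.72, 2.27e-27) and Fgfr1 (-0.58, 0.000196) and the Nodal effector Smad2 (-0.42, 0.0194) were lower in males.

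Markers of the sorted cell and of other gonadal cells were read in the same embryos. Of 13 primordial germ cell markers in the table, which hold Dazl and Ddx4, 4 were higher and 5 lower in males, and their summed level in vehicle embryos had a median of 8175 in males and 5879 in females, with Dppa5a the most abundant. Of 12 Sertoli cell markers, all 10 that could be tested were higher in males. Their sum ran from 66.5 to 1209 with a median of 634 in vehicle males and from 14.0 to 37.2 with a median of 21.2 in vehicle females. Cst9 led in males, at 410 ± 226 against 0.0865 ± 0.127 in females (SD, n = 17), and Aard led in females at 21.1 ± 6.53. Aard thus made up most of the female sum. No Sertoli marker was at 0 in all embryos of a sex. Sertoli markers thus moved with sex as Nanos2 and Nanos3 did, and their part in the sex differences of the 7 genes was not tested.

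The other marker lists had lower median sums than the Sertoli list in vehicle males. Median sums are given for vehicle males and then females. Pregranulosa markers had 11.2 and 6.32, led by Kitl in males and Wnt4 in females, with 2 of 5 tested higher and 1 lower in males. Fetal Leydig markers had 54.9 and 76.7, led by Fdx1, a gene of many cell types, with 1 of 4 higher and 2 lower. Endothelial markers had 30.8 and 34.9, led by Pecam1, which made up most of the sum, with 2 of 4 higher and 1 lower. Stroma and mesonephros markers had 3.22 and 2.16, led by Dcn, with 0 of 3 higher and 1 lower. Macrophage markers had 16.2 and 22.4, led by C1qb, with 0 of 8 called. Erythroid markers had 1.63 and 1.40, led by the alpha globin genes Hba-a1 and Hba-a2, with 0 of 6 called, yet reached 5982 in 1 vehicle male. Hba-x was at 0 in all vehicle females, and no other marker of these lists was at 0 in all vehicle embryos of a sex. The part of these cells in the results was not tested.

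Levels of the 7 genes were next compared between vehicle embryos of different generations. Over 6 comparisons of generations within a sex and 3 of the sex difference between generations, limma called 0 of 63 values, with 1 at an unadjusted p under 0.05. The edgeR quasi-likelihood and likelihood ratio tests also called 0 and had 0 and 0 at an unadjusted p under 0.05. In each of these 9 comparisons 0% of genes were called. The single low p was for Pum2 in F3 against F1 females, at 25.2 to 39.6 normalized counts (n = 6) against 29.4 to 57.0 (n = 5), with overlapping ranges (-0.43, limma adjusted p = 0.961), in a comparison with 2.57% of all genes at an unadjusted p under 0.05. Vehicle female Dazl was 1549 ± 398 in F1, 1260 ± 241 in F2 and 1346 ± 282 in F3, and vehicle male Nanos3 was 128 ± 54.8, 85.9 ± 28.2 and 106 ± 51.6 in the same order.

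Exposure of the F0 dam was asked of each dose within each sex and generation, in 18 comparisons that give 126 values for the 7 genes. The limma test called 0 of 126, with 9 at an unadjusted p under 0.05. The edgeR quasi-likelihood test and likelihood ratio test called 0 as well, each with 9 at an unadjusted p under 0.05. Among all genes, limma called 0% in 16 of the comparisons, 0.00733% (1 gene) in F1 females at 2 mg/kg/day and 0.145% (19 genes) in F2 males at 0.2 mg/kg/day. The quasi-likelihood test called 3 genes in each of these comparisons, 5 in F3 males at 0.2 mg/kg/day and 0 in the other 15. The likelihood ratio test called 8 and 79 in the same 2, 85 in F3 males at 0.2 mg/kg/day, 21 in F3 females at 0.033 mg/kg/day, 1 to 3 in 3 others and 0 in 11. Comparisons of 1 sex and generation share their vehicle embryos. The 9 limma values at an unadjusted p under 0.05 were 2 each for Nanos2, Ddx4 and Lin28a and 1 each for Nanos3, Dnd1 and Dazl. Over the 18 comparisons 7.14% of the values of the 7 genes and 5.1% of those of all genes were at that p, and the share of all genes ran from 0.183% to 15.4% (F3 females at 2 mg/kg/day, with 0 of the 7). It was 9.89% in F1 females at 2 mg/kg/day, 9.58% in F2 males and 10.6% in F3 males at 0.2 mg/kg/day, where 2, 3 and 2 of the 9 values lay, and 4.61% in F2 females and 1.75% in F1 males at 2 mg/kg/day, with 1 each.

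Over the 18 comparisons the differences from vehicle ran from -1.43 to 1.91 for Nanos2, -0.41 to 1.15 for Nanos3, -0.59 to 0.57 for Dnd1 and -0.23 to 0.40 for Pum2. They ran from -0.41 to 0.39 for Dazl, -0.74 to 0.56 for Ddx4 and -0.59 to 0.63 for Lin28a. Group means of Dazl ran from 780 to 1129 normalized counts in males and 1058 to 1563 in females, and those of Ddx4 from 260 to 505 and 330 to 576. Those of Lin28a ran from 3.64 to 9.19 in males and 8.16 to 14.2 in females, and those of Nanos3 from 76.4 to 214 and 43.4 to 103.18. For Dnd1 they ran from 26.5 to 36.4 in males and 18.6 to 48.7 in females, for Pum2 from 29.5 to 39.0 and 30.6 to 43.4, and for Nanos2 from 0.633 to 5.65 and 0 to 0.170. The lowest or highest of these means often came from groups of 2 to 4 embryos.

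Nanos3 in females at 2 mg/kg/day had the smallest adjusted p of the dose comparisons in the fit of all generations, though not within 1 generation. In F1 it was 60.8, 80.0, 113, 114 and 147 normalized counts at this dose and 31.9, 33.0, 40.9, 58.5 and 65.3 in vehicle females. Of the 5 exposed females 4 lay above every vehicle female. The difference was 1.15 (SE 0.33, 95% confidence interval 0.48 to 1.82, limma adjusted p = 0.321). Its adjusted p ran from 0.138 to 0.858 over the other settings, and from 0.0947 to 0.847 on leaving out 1 embryo. Over all generations the 12 females at this dose ran from 39.0 to 164 with a median of 80.8, against 29.7 to 101 and 53.02 in 17 vehicle females, and 10 of 12 lay above the vehicle median. In F2 it was 39.0, 46.4 and 87.1 at this dose against 33.6 to 80.5 in 6 vehicle females (-0.08, adjusted p = 0.971). In F3 the 4 exposed females ran from 54.7 to 164 against 29.7 to 101 (0.82, 0.363). The generations were not tested against each other for this dose. The difference over all generations was 0.70 (SE 0.23, 95% confidence interval 0.25 to 1.14, adjusted p = 0.0654). It passed with the compared groups fitted alone (adjusted p = 0.0389) and was 0.56 without the deep libraries (adjusted p = 0.182), the ends of the range over the alternatives.

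Ddx4 went the other way in the same embryos without passing. In F1 females at 2 mg/kg/day it was 185, 244, 343, 403 and 477 normalized counts, against 399, 530, 557, 561 and 586 in vehicle females. Of the exposed, 3 lay below every vehicle female (-0.74, SE 0.30, limma adjusted p = 0.453). Over all generations Ddx4 at that dose differed by -0.34 (SE 0.17, adjusted p = 0.192), and Dazl by -0.17 (adjusted p = 0.461). In F2 both were higher at that dose, Ddx4 with a mean of 509 against 442 in vehicle females (0.20, adjusted p = 0.868) and Dazl with 1443 against 1260 (0.20, 0.8294). In F3 Ddx4 differed by -0.33 (0.539) and Dazl by -0.24 (0.714).

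Marker sums of other cells were not alike in these females. In rising order of Nanos3 the 5 exposed F1 females (D2587.1, D1824.1, C4258.2, C4219.4 and D2582.1) had summed Sertoli markers of 21.4, 17.8, 116, 73.5 and 39.5 normalized counts, against 19.3 to 36.8 in the 5 vehicle females. The 3 above every vehicle female were also the 3 highest in Nanos3, and C4258.2 and C4219.4 among them were deep libraries. Sertoli sums were 78.0 and 73.6 in the deep F1 females at 0.2 mg/kg/day, C4228.3 and C4242.1, with Nanos3 at 35.7 and 25.6. The deep vehicle female C4232.9 had a Sertoli sum of 33.2, with Nanos3 at 33.0. At 2 mg/kg/day 7 of 10 Sertoli markers tested were higher and 0 called. Aard was the most abundant there (17.6 to 112 against 17.6 to 33.5) and made up most of the Sertoli sum, so these sums mainly follow Aard. None of the 12 was at 0 in all exposed females. Erythroid sums in the same order were 0.272, 3.03, 4.56, 7.09 and 1900, against 0 to 3.61, led by Hba-a2, with 6 of 6 tested higher, 0 called and none at 0 in all exposed. Sums of the germ cell markers, Ddx4 and Dazl included, were 6106, 7255, 8597, 7590 and 9935, against 5245 to 6696, led by Dppa5a, with 10 of 13 higher, 0 called and none at 0. Stroma and mesonephros sums lay above every vehicle female in 4 of 5 (3.09 to 12.6 against 1.08 to 3.10), led by Pax8, with both tested markers higher, 0 called and none at 0. Over all generations the germ cell sum lay above every vehicle female in 9 of 12 exposed females and the Sertoli sum in 4. There 8 of 13 germ cell markers were higher and limma called 2 of them, Dppa5a (0.69, adjusted p = 0.0476) and Dppa3 (0.51, 0.0481). Both calls were lost with a pseudocount of 0.1, with no filter, with generation as a term, in the edgeR quasi-likelihood test and without the deep libraries, with adjusted p from 0.0514 to 0.106. The part of these cells in the Nanos3 and Ddx4 values was not tested.

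Nanos2 gave both ends of its range in males at 0.2 mg/kg/day, and its F2 value there had the smallest adjusted p of the 126. In F2 the 3 exposed males were at 1.89, 4.29 and 10.8 normalized counts, and the 6 vehicle males ran from 0 to 3.13 with a median of 0.841. Of the 3, 2 lay above every vehicle male (1.91, SE 0.53, limma adjusted p = 0.101). Without exposed male D1040.1, the lowest of the 3, the difference was 2.45 and passed (adjusted p = 0.0218), while leaving out other embryos gave adjusted p up to 0.785. In F3 the 4 exposed males were at 0, 0.0953, 0.168 and 2.27, and the 6 vehicle males ran from 0.472 to 9.14. There 3 of the 4 lay below every vehicle male (-1.43, SE 0.66, limma adjusted p = 0.440). Dazl (0.39, adjusted p = 0.469) and Ddx4 (0.56, 0.421) were at their highest difference in those F2 males.

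Lin28a in F3 males at 0.2 mg/kg/day was 8.24, 8.45, 9.15 and 10.9 normalized counts, from 3 litters, and ran from 4.82 to 7.28 in 6 vehicle males. All 4 exposed males lay above every vehicle male. The difference was 0.63 (SE 0.19, 95% confidence interval 0.24 to 1.02, limma adjusted p = 0.189), and without male D1390.5 it was 0.55 (adjusted p = 0.787). At 2 mg/kg/day all 14 males of the 3 generations lay above the vehicle male median, 5.27 to 11.005 against 4.25 to 9.88, a difference of 0.28 (limma adjusted p = 0.997). Within F3, though, 2 of the 3 exposed males (5.27 and 5.40) lay below the vehicle median of 5.45, and the difference was 0.01, as against 0.12 in F2. In F1 males at 2 mg/kg/day it was 0.47 (8 against 5 embryos, limma adjusted p = 0.999995). Dnd1 in F2 females at 2 mg/kg/day was 13.1, 19.2 and 23.5 against 19.4 to 58.3 in 6 vehicle females (-0.59, limma adjusted p = 0.810). Without vehicle female D3133.2, the highest (58.3, the next 27.3), the difference was -0.37, and without exposed female D1669.5 it was -0.36.

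Sertoli marker sums were lower in the 0.2 mg/kg/day males just described. They ran from 38.3 to 472 normalized counts in the 3 exposed F2 males against 448 to 1068 in 6 vehicle males, and from 63.9 to 420 in the 4 exposed F3 males against 66.5 to 1209. In both generations 0 of 10 tested Sertoli markers were higher and 0 were called, Cst9 was the most abundant, and none of the 12 was at 0 in all exposed males. Macrophage sums in F2 were 1.89 to 10.9 against 8.26 to 40.6, led by C1qb, with 0 of 8 higher, 0 called and none at 0. Endothelial sums in F3 lay above every vehicle male in 3 of 4 (32.7 to 55.3 against 17.1 to 39.3). Pecam1 made up most of these sums (28.1 to 48.4 against 14.2 to 33.8). Of 4 endothelial markers tested 2 were higher and 0 called, and Emcn was at 0 in all exposed. In the F3 vehicle males 1 endothelial marker was likewise at 0 in all. In the F2 females at 2 mg/kg/day all 3 macrophage sums lay below every vehicle female (4.57 to 12.2 against 14.0 to 39.0), led by C1qb, with 0 of 8 higher, 0 called and none at 0. The part of these cells in the dose values was not tested.

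**Figure D3:**
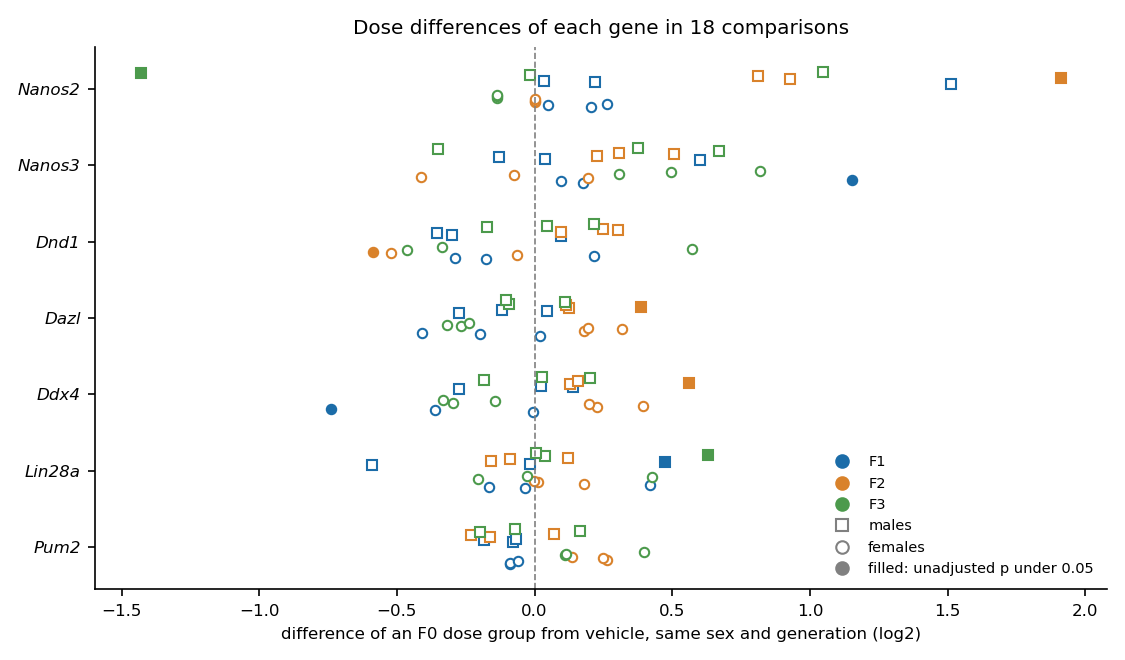
Difference of each F0 dose group from vehicle of the same sex and generation for the 7 genes (log2, horizontal axis), with 18 points a gene, squares for males, circles for females, colours for generations and filled symbols for an unadjusted p under 0.05. Nanos2 in males spans the widest range, from -1.43 to 1.91, and no point passed the adjusted threshold.

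With all generations joined, each dose and the mean of the 3 doses was compared with vehicle in each sex, 8 comparisons and 56 values for the 7 genes. Here limma called 0 of 56, with 3 at an unadjusted p under 0.05 (2 in females at 2 mg/kg/day, with 23.3% of all genes, and 1 in males at that dose, with 3.91%, or 5.36% of these values against 6.03% of those of all genes over the 8), and the edgeR quasi-likelihood and likelihood ratio tests also called 0, with 3 and 3. In limma, females at 2 mg/kg/day had 1.36% of genes called (181 of 13288, 98 higher and 83 lower), and the other 7 comparisons 0%. The quasi-likelihood and likelihood ratio tests called 33 and 144 genes in those females, 10 and 28 in females at 0.033 mg/kg/day, 8 and 8 in males at 0.2 mg/kg/day, and 0 to 4 in the other 5. The limma count of 181 fell to 0 without the deep libraries and rose to 961 with the compared groups fitted alone. The exposure effect in males against that in females, tested as an interaction, called 0 of the 7 genes in limma and in both edgeR tests, with 0 at an unadjusted p under 0.05 in each. Of all genes limma called 0% for it, the quasi-likelihood test 7 genes and the likelihood ratio test 4.

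Of the genes in the 7 lists, Rbpms2, an RNA-binding protein gene of oocytes, was the only one that limma called in a dose comparison. In 12 females at 2 mg/kg/day over all generations it ran from 10.7 to 35.7 normalized counts with a median of 18.3, against 19.3 to 61.8 and 28.3 in 17 vehicle females. Of the exposed, 11 of 12 lay below the vehicle median (-0.63, SE 0.17, adjusted p = 0.0481). The call was lost with a pseudocount of 0.1 (adjusted p = 0.0514), with no filter (0.0544), with generation as a term (0.0589), in the edgeR likelihood ratio test (0.0713) and quasi-likelihood test (0.0856), and without the deep libraries (0.114).

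Relations between the 7 genes were read over embryos of 1 sex. Of the possible pairs 12 were computed, Nanos2 with each of the others in 53 males and Dazl with each of the others in 48 females, and p came from permutations with Benjamini-Hochberg adjustment over the 12. Of these 9 passed by Pearson r and 8 by Spearman rho. Littermates share a dam, so the embryos are not fully independent. These relations pool all doses.

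In females Dazl and Nanos3 ran opposite to each other (r = -0.78, permutation p = 1e-05, the smallest the permutations can give, adjusted p = 6e-05, rho = -0.75). The relation held within F1 (r = -0.81, adjusted p = 0.00024), F2 (-0.73, 0.0118) and F3 (-0.81, 0.00132), and without the 2 embryos farthest in Dazl (-0.75, 6e-05). Dazl and Ddx4 rose together (r = 0.70, permutation p = 1e-05, adjusted p = 6e-05, rho = 0.74), also within F1 (0.78), F2 (0.78) and F3 (0.80) with adjusted p from 0.0009 to 0.0107, and without the 2 farthest (0.70). Females with high Dazl thus tended to have high Ddx4 and low Nanos3 in each generation.

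The other female relations did not hold within each generation. Dazl with Lin28a had r = -0.46 (rho = -0.50, permutation p = 0.00104, adjusted p = 0.00250), and -0.58, -0.56 and -0.22 within F1, F2 and F3, with adjusted p = 0.0411, 0.0531 and 0.513. Dazl with Dnd1 had r = -0.44 (rho = -0.47, permutation p = 0.0018, adjusted p = 0.0036), and -0.48, -0.41 and -0.33 within generations, none passing (0.0981, 0.202 and 0.363). Dazl with Pum2 had r = 0.39 (rho = 0.41, permutation p = 0.00603, adjusted p = 0.0103), and 0.27, 0.72 and 0.27 within generations, passing in F2 only (0.393, 0.0118 and 0.468). Without the 2 farthest embryos these were -0.51, -0.43 and 0.40. Dazl with Nanos2 had r = 0.16 (rho = 0.21, adjusted p = 0.303), with most females at 0 for Nanos2 and all F2 females among them.

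In males Nanos2 rose with Nanos3 (r = 0.58, rho = 0.56, permutation p = 2e-05, adjusted p = 8e-05). Within generations r was 0.52, 0.56 and 0.67 with adjusted p = 0.0411, 0.0531 and 0.0147, so F2 missed the threshold, and without the 2 embryos farthest in Nanos2 it was 0.53 (0.00032). Nanos2 ran opposite to Lin28a (r = -0.48, rho = -0.44, permutation p = 0.00028, adjusted p = 0.00084). Within generations that r was -0.44, -0.58 and -0.50, none passing (0.0981, 0.0531 and 0.122), and without the 2 farthest it was -0.46 (0.00199). Males with much Nanos2 thus tended to have more Nanos3 and less Lin28a over all generations.

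Nanos2 with Dnd1 had r = 0.31 (rho = 0.35, permutation p = 0.0242, adjusted p = 0.0364). Without the 2 farthest males r was 0.26 (0.0858) and rho 0.30 (0.0460), and without the deep libraries r was 0.35 (0.0269). Within generations it was 0.18, 0.37 and 0.48, none passing (0.480, 0.234 and 0.123). Nanos2 with Pum2 had r = -0.29 (rho = -0.24, permutation p = 0.0313, adjusted p = 0.0418). It missed the threshold by rho (adjusted p = 0.103), without the deep libraries (r = -0.25, 0.120) and within F1, F2 and F3 (-0.29, -0.06 and -0.39, with 0.294, 0.841 and 0.228), and was -0.32 (0.0341) without the 2 farthest. Nanos2 with Dazl (r = 0.15, rho = 0.19, adjusted p = 0.303) and with Ddx4 (r = 0.12, rho = 0.10, adjusted p = 0.381) did not pass.

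**Figure D4:**
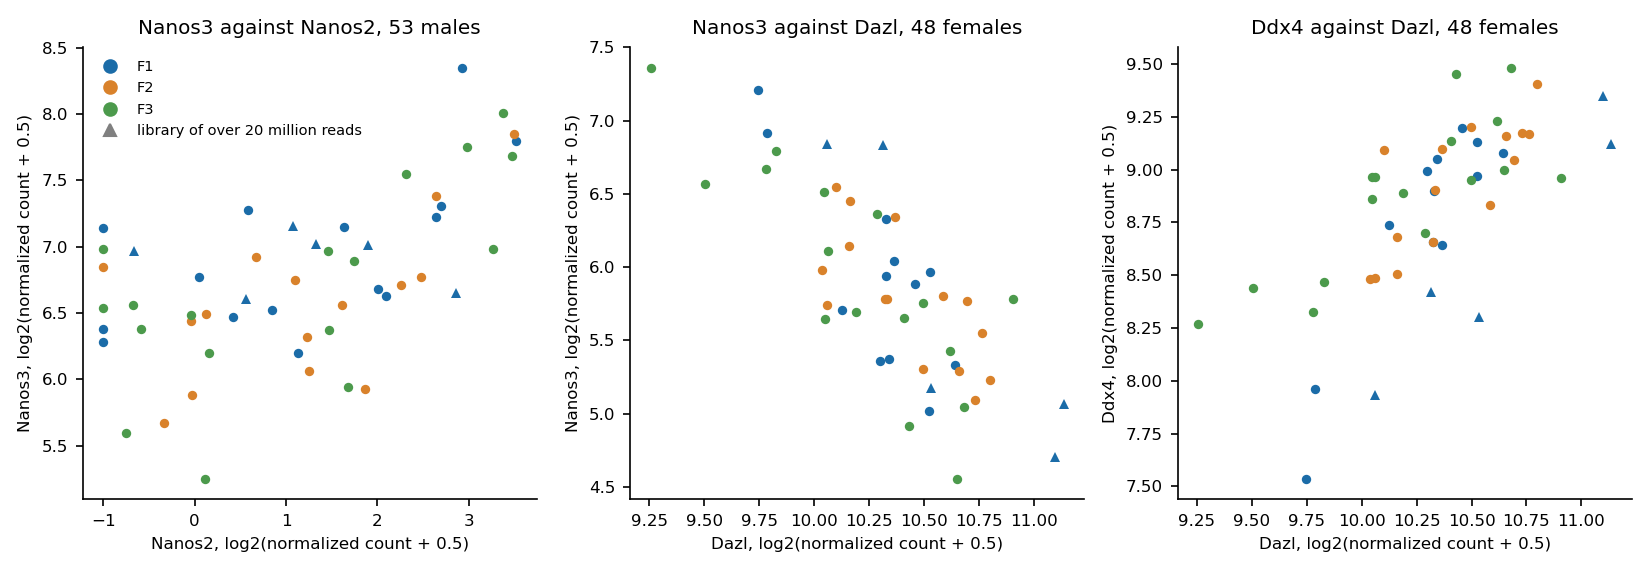
Nanos3 against Nanos2 in 53 males, Nanos3 against Dazl in 48 females and Ddx4 against Dazl in 48 females, all as log2(normalized count + 0.5), with 1 point an embryo coloured by generation and triangles for libraries of over 20000000 reads. Points rise together in the left panel (r = 0.58) and the right panel (r = 0.70) and fall in the middle panel (r = -0.78).

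For each of the 7 genes the 3 genes most alike over embryos of 1 sex were read off by Pearson r of the same values, among genes with a mean of at least 5 normalized counts, as a description with no test. In the 53 males Nanos2 was most like Krt17 (r = 0.936), Krt42 (0.915) and Asb9 (0.910). Nanos3 was most like Gtsf1 (0.884), Gtsf1l (0.871) and Mea1 (0.862). Dnd1 was most like Ctsd (0.847), Tbl3 (0.843) and Smarca4 (0.839). Pum2 was most like Srsf1 (0.851), Mbtd1 (0.836) and Rasa1 (0.833). Dazl followed Atp6v1h (0.868), Arf4 (0.867) and Atg5 (0.856), and Ddx4 followed Cul2 (0.936), Cnot2 (0.933) and Pnpla8 (0.917). Cnot2 is a subunit of the CCR4-NOT complex that NANOS2 recruits. Lin28a had the lowest likeness, with Gldc (0.724), Mtap7d2 (0.718) and Akap1 (0.684).

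In the 48 females Nanos3 was most like Eif4ebp1 (r = 0.954), Tnfrsf19 (0.954) and Map1lc3b (0.935). Dnd1 was most like Cdt1 (0.923), Trp53 (0.920) and Ckb (0.914). Dazl was most like Kpna3 (0.912), Thoc2 (0.910) and Zfp644 (0.901). Ddx4 followed Bub1 (0.924), Vps35 (0.923) and Cul1 (0.923), and Pum2 followed Canx (0.882), Phf17 (0.869) and Mbtd1 (0.869). Lin28a again had the lowest likeness among genes seen in most females, with Ahcy (0.713), E2f6 (0.708) and Mybl2 (0.686). For Nanos2 the values, led by Ube2h (0.762), rest on the 8 females above 0.

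LIN28A blocks the let-7 miRNAs, and a let-7 miRNA can in turn silence messages whose 3′ UTR pairs with its seed, so the Lin28a 3′ UTR was searched for the seed match of let-7a, here with the seed (bases 2 to 8) in capitals.
mmu-let-7a-5p: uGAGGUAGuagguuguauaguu
The 3′ UTR of Lin28a in the GENCODE annotation of GRCm38 has 2775 bases and holds the letters CTACCTC, read on the strand of the message, 2 times. The matches are shown in capitals within bases 894 to 916 and 1532 to 1554, counted from the first base after the stop codon.
Lin28a site 1: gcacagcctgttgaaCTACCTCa
Lin28a site 2: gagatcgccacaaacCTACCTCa
The other 6 genes held these letters 0 times. Of 11378 3′ UTRs of tested genes 10.1% held them, and 15.2% of the 716 within 10% of the length of that of Lin28a.

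Pumilio proteins bind the letters TGTANATA, where N is any base. The 3′ UTR of Pum2 itself, with 2861 bases, held this element 2 times, shown in capitals within bases 437 to 460 and 690 to 713.
Pum2 site 1: tatagagaTGTATATAgaattata
Pum2 site 2: tacagaatTGTATATActtataat
Lin28a held it 1 time and the other 5 genes 0 times. It was held by 25.8% of the 11378 3′ UTRs and by 43% of the 710 within 10% of the length of that of Pum2. A match describes letters and was not tested for binding.

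Dazl and Ddx4 rose together between females, and so the 250 bases before the RefSeq start of each are shown, on GRCm38.p6. The table matched 6 of the 7 genes with 8 promoters. These were searched on both strands for the E-box CACGTG, which reads the same on both strands, and for the E2F site TTCCCGC, which is GCGGGAA on the other strand. Matches are in capitals. The Dazl promoter, chr17:50293621-50293870 on the minus strand, held neither.
Dazl promoter: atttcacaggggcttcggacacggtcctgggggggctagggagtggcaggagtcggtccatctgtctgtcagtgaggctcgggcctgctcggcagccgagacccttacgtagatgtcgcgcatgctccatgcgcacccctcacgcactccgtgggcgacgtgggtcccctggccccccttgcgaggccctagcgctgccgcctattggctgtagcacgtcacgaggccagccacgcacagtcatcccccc
The Ddx4 promoter, chr13:112652311-112652560 on the minus strand, held 1 E-box and 1 E2F match, and the letters do not overlap.
Ddx4 promoter: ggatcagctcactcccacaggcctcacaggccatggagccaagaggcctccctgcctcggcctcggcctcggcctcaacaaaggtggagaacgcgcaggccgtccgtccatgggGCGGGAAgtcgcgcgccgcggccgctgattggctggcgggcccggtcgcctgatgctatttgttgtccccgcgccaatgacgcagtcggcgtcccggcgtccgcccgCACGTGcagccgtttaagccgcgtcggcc
Of 32851 promoters of this length 6.02% held the E-box, 3.82% the E2F letters and 9.5% either. Of the other promoters, that of the third start of Pum2 held 1 E2F match and the others neither. By the GENCODE spans given above, the end of the Dazl window and the part of the Ddx4 window that holds both matches lie inside the gene, so the annotations differ in the start. No match says only that these letters are not in this window.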

How the data were processed

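The deposited unit is a signal. The authors trimmed reads with Trim Galore, aligned them to mm10 with STAR, counted them on exons and scaled the counts by TMM in edgeR. For 99 of 101 embryos whole reads could be recovered, with 100.000% of 1423762 nonzero values within 0.05 of a whole read. Vehicle female D1388.3 and male D4190.1 (2 mg/kg/day), both F3, gave no whole reads and were left out of count tests and floors only. Dates had replaced 19 symbols, none of them of the 7 genes.

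The main test was limma 3.58.1 in R 4.3.3 (two-sided, empirical Bayes, mean-variance trend), run on log2(normalized count + 0.5) for genes with a mean of at least 0.5, adjusted over all genes by Benjamini-Hochberg. There was 1 fit of sex-by-dose groups per generation and 1 for all, and 1 of 24 groups for generations. Alternatives were other pseudocounts, filters and scalings, edgeR 4.0.16 tests on recovered reads, the compared groups alone, generation as a term, dams as a replicate block, and leaving out embryos. On the recovered reads, for males against females in vehicle embryos of all generations, the quasi-likelihood and likelihood ratio tests called 7373 and 7444 genes. Dams were taken from titles. The consensus correlation within dams was 0.383 in F1, 0.0532 in F2, 0.225 in F3 and 0.262 over all. No embryo's values were a copy of another's over 184 pairs compared, by a chi-square per degree of freedom of at least 5.50. Correlations used 100000 permutations, in scipy 1.17.1.

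Besides the 7 genes, the genes named are up to 3 called genes of smallest p in each direction and the most abundant gene of each list, genes called in a dose comparison, the 3 genes most alike, and the leading marker of each cell type. The members and lists were chosen with earlier results of these data known. Fits were tested on simulated data.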

Additional observations from a re-analysis of the deposited data

Results flagged for a closer look

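In 14 groups of 4 to 10 embryos the highest or lowest value of each of the 7 genes was compared with the rest of its group by Dixon's test. In 4 of 98 combinations of gene and group, all values but 1 or all values were tied, which fixes the outcome. Of the other 94, 8 stood apart, where chance gives about 1 in 20 if values are normally distributed. The test was run on normalized counts without a log, and all 8 were the highest of their group. The 8 are therefore not read as more than that rate gives. In F1 vehicle female C4232.9, a deep library, Dazl was 2251 normalized counts with the next at 1472. Nanos2 was 0.191 there with the other 4 at 0, a tie that gives no test. In F1 vehicle male C3774.3, also deep, Lin28a was 9.88 with the next at 5.70, and Pum2 was 59.2 with the next at 35.5. Nanos3 was 120 in F1 female D2510.2 at 0.2 mg/kg/day, with the next at 51.9, and 101 in F3 vehicle female D3526.1, with the next at 53.6. Dnd1 was 58.3 in F2 vehicle female D3133.2, with the next at 27.3. Pum2 was 81.6 in F3 vehicle male D3402.3, with the next at 35.3. Nanos2 was 2.27 in F3 male D1464.2 at 0.2 mg/kg/day, with the next at 0.168.

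In 3 of 63 combinations of gene, generation and dose, exposed males and females lay on opposite sides of the vehicle mean of their sex. Every exposed male lay on one side and every exposed female on the other. The difference between the sexes was not tested. Such splits were not counted over all genes, so there is no background share. With 3 embryos of a sex, as in these cases, they can arise without an effect. Pum2 in F2 at 0.033 mg/kg/day was -4.12 normalized counts from the vehicle mean in 3 males and 7.29 in 3 females, a difference of -11.4. Pum2 in F2 at 0.2 mg/kg/day was -5.58 in males and 6.87 in females, a difference of -12.5. Dnd1 in F2 at 0.2 mg/kg/day was 5.34 in males and -10.4 in females, a difference of 15.7.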

How the results depend on the processing

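Of the 7 genes, 5 were called in vehicle males against females over all generations in each setting tried but that with genes of a mean of at least 5, which left out Nanos2 and called 4. With dams as a replicate block the count was 5. In single generations 10 values were called, 6 with genes of a mean of at least 5 (where Nanos2 is not tested), 11 with dams as a replicate block, and 7 to 10 in the other settings. Leaving out 1 embryo gave 8 to 10. For dose in single generations the count was 0 in each setting, the replicate block included, and 0 to 1 on leaving out 1 embryo (Nanos2 in F2 males at 0.2 mg/kg/day without male D1040.1). For dose over all generations it was 0, also with the replicate block, but 1 with the compared groups alone (Nanos3 in females at 2 mg/kg/day). The cause was not tested. Correlations passed in 9 of 12, and in 4, 3 and 3 within F1, F2 and F3, where embryos are fewer. No called result reversed in sign. Of 463 values of the 7 genes under other settings 14 lost (1 of them without F3 male D1390.5, counted again below) and 3 gained a call, and of 927 with 1 embryo left out 49 lost and 4 gained one. In settings not run on all comparisons no value is given. Genes of a mean of at least 5 brought the sex calls over all genes from 7502 to 4758 in all generations, 3250 to 2165 in F1, 5375 to 3451 in F2 and to 2530 in F3, since fewer genes were tested. In F2 males at 0.2 mg/kg/day 19 genes became 0 to 79, and in F3 males at that dose 0 became up to 85. Leaving out 1 embryo gave 0 to 243 and 0 to 172 there, 0 to 25 in F1 females at 2 mg/kg/day (1 with all embryos), up to 3 in F3 males at 0.033 mg/kg/day and up to 1 in F2 males at 2 mg/kg/day. Depth limits Nanos2 most, with a median of 15 reads in males.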
